A study of Rattus norvegicus with 6 samples.

Results

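Vgf and the genes of the secretory granule were examined in cultured cardiomyocytes exposed to isoproterenol, a synthetic agonist of beta-adrenergic receptors. The set is 8 rat genes (Vgf, Scg2, Scg5, Chga, Chgb, Pcsk1, Pcsk2 and Bdnf), for which every row of the deposited mRNA table whose RefSeq transcript belonged to one of the genes was taken. Of the 8 genes 5 were present, with 10 rows among the 20676 rows that could be matched to array probes and 19975 genes tested. Vgf, Scg2, Scg5 and Chga had 1 row each and Bdnf had 6. Chgb, Pcsk1 and Pcsk2 had no named row and were not analysed here. All 10 rows passed the filter on dim probes, but so did some row of every gene, since 19975 were tested with or without it. The genes were selected on measured values of the same comparison that is described below, so their values are given as a description. Where a member is said to pass or miss the threshold of the fit over all genes, this too is a description and supports nothing.

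The samples were ventricular myocytes of newborn Sprague-Dawley rats, 1 to 3 days old, with 3 samples given 10 µM isoproterenol for 24 h and 3 left untreated. All 6 had been depleted of fibroblasts by letting these attach first, and all were kept without serum before and during treatment. The sample descriptions mention passages and the series text mentions transfected replicates, neither of which matches the protocol, and the mismatch was not resolved. Biological replicates are stated in the series text, but no label names separate litters or isolations, so the p-values cover only the spread between these 6 samples, which may be technical.

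The dense-core granule is the store of the regulated secretory pathway. Granins such as chromogranin A (Chga), chromogranin B (Chgb), secretogranin II (Scg2) and the Vgf protein condense in the trans-Golgi network, are packed with peptide precursors, and are cut into bioactive peptides by prohormone convertases (Pcsk1, Pcsk2) inside the granule, which empties when calcium or cAMP rises. Vgf is best known as a gene induced by neurotrophins in neurons and neuroendocrine cells, and cardiomyocytes, above all those of the atria, use similar granules for natriuretic peptides. Beta-adrenergic receptors raise cAMP, and the factor CREB binds the cAMP response element in the promoters of many granule genes.

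Among the members' promoters, a full cAMP response element (TGACGTCA) was found at 2 genes, Vgf and Scg2, and only its short form (TGACG) at 3 others, Scg5, Pcsk2 and Bdnf. RefSeq windows of 300 bases on build GRCr8, running from 250 bases before to 50 bases after an annotated transcript start, were searched on both strands. They covered 6 of the 8 genes with 11 windows, 6 of them of Bdnf, and Chga and Pcsk1 were not listed. The full element occurred in 1.83% of all 33469 windows, the short form in 21.2%, the E-box CACGTG in 6.42% and the TATA box TATAAA in 14.2%. Counted by gene, as the members are, the full element was found in 2.00% and the short form in 23.0%. Each full element contains the short form on either strand, so these counts overlap. A match describes letters only, not a bound site.

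The 250 bases before the start are printed for Vgf and Scg2, whose windows hold the full element, and for the Bdnf window with the short form, window 4 of 6 in chromosomal order. They lie at chr12:25277021-25277270 on the minus strand, chr9:88256867-88257116 on the minus strand and chr3:116637608-116637857 on the plus strand. Each reads 5′ to 3′, and capitals mark the cAMP response element, its short form on either strand and the TATA box.
Vgf: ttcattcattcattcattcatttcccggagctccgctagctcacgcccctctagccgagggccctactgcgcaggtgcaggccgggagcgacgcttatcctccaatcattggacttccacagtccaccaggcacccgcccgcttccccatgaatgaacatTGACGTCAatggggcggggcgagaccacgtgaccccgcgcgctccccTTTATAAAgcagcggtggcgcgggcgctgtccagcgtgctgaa
Scg2: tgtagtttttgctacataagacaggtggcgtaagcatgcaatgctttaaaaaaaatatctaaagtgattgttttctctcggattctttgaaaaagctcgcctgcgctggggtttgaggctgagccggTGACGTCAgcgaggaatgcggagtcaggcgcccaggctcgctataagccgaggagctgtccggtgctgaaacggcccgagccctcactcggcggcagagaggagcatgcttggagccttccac
Bdnf window 4: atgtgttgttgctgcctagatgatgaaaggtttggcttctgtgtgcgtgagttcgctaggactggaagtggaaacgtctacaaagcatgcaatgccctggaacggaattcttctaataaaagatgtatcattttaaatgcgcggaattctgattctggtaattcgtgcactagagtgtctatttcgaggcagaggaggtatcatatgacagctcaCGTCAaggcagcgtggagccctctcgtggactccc
The Vgf and Scg2 runs both lie inside the gene's annotated span, which reaches chr12 position 25281803 for Vgf and chr9 position 88257208 for Scg2.

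In Vgf the cAMP response element lay at −90 to −83 from the annotated start, followed by an E-box at −65 to −60 and a TATA box at −41 to −36 that overlaps another match on the other strand. Scg2 had its element at −123 to −116, with no TATA box or E-box in the window. Scg5, the chaperone of the convertase Pcsk2, had the short form at −7 to −3 and at 15 to 19, and Pcsk2 had one at −57 to −53. The short form in Bdnf window 4 lay at −35 to −31. Chgb and the Bdnf windows 1, 3, 5 and 6 held none of the 4 motifs, and Bdnf window 2 held an E-box and, at its far end, a TATA box on the other strand.

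**Figure D1:**
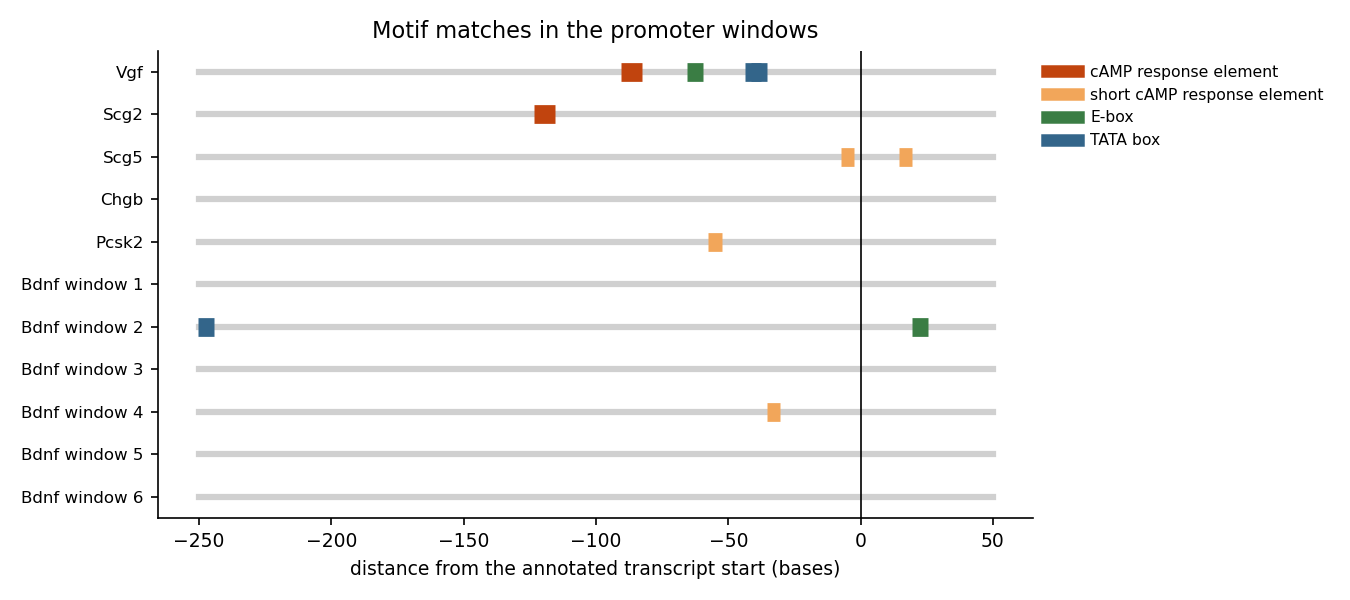
Matches to 4 motifs (coloured blocks) in the promoter windows of the members, by distance in bases from the annotated transcript start (vertical line); each grey bar is 1 window. The full cAMP response element is present in the Vgf and Scg2 windows, and its short form in those of Scg5, Pcsk2 and Bdnf window 4.

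The arrays differed in signal over background, which touches every value below. Isoproterenol replicates 2 and 3 were on slide 2, as scan times and array positions in the headers show, and isoproterenol replicate 1 and control replicates 1 to 3 were on slide 1. The share of mRNA probes well above background was 99.7% for isoproterenol replicate 1, 61.2% and 70.8% for replicates 2 and 3, and 97.6% to 99.6% in controls. The lowest signal counted as well above background was at −2.77 and −3.41 on the log2 scale relative to the array's 75th percentile for isoproterenol replicates 2 and 3, against −6.51 for isoproterenol replicate 1 and −6.44 to −6.04 in controls. Within slide 1 only 1 isoproterenol array can be set against the 3 controls, and those values are given beside the pooled ones. A fit with slide as a block takes its log2 change from this same comparison, since slide 2 holds no control array. It is thus no separate check of that change.

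Vgf, the precursor of several secreted neuropeptides, was far higher with isoproterenol, on every array. Its signal was 2052, 1220 and 1603 scanner units on isoproterenol arrays 1 to 3, against 146, 89.6 and 108 on control arrays 1 to 3. Relative to the 75th percentile of each array, the log2 signal was 1.78, 2.56 and 2.69 with isoproterenol, against −1.90, −2.70 and −2.35 in controls. Every isoproterenol array thus stood above every control array, and the probe was well above background on all 6 arrays. The means were 2.34 ± 0.49 with isoproterenol and −2.32 ± 0.40 in controls (SD, n = 3 each), a log2 change of 4.66 ± 0.32 (SE of the limma model), or 25.2-fold. On slide 1 alone, isoproterenol replicate 1 exceeded the control mean by 4.09, and the slide 2 arrays exceeded it by 4.94. In the authors' deposited table the log2 values were 10.5, 11.1 and 11.2 with isoproterenol and 6.74, 5.98 and 6.31 in controls.

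Only 1 of the 19975 genes, Mfsd2a, a lipid transporter, had a larger fitted log2 rise than Vgf. The Vgf change ranged from 3.89 with normexp background correction to 4.94 without isoproterenol replicate 1. Under the settings tried, 0 to 2 genes had a larger rise.

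For the other granins the groups overlapped. Scg2, a granin cut into secretoneurin, had relative log2 signals of −1.84, −1.30 and −1.22 on isoproterenol arrays 1 to 3, against −1.48, −1.66 and −1.83 on the control arrays. Isoproterenol replicate 1 was the lowest of the 6 and the slide 2 arrays were the highest, and the log2 change was 0.21 ± 0.22. The difference from the control mean was −0.18 on slide 1 and 0.40 for the slide 2 arrays.

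Chga, the classic granin of adrenal chromaffin granules, had −2.81, −1.62 and −1.65 with isoproterenol, against −2.24, −2.63 and −2.41 in controls. The isoproterenol array of slide 1 was below all controls and both slide 2 arrays were above them, so the groups overlapped and the log2 change was 0.40 ± 0.34. This layout, which Scg2 also had, was seen in 5.39% of all genes. The difference from the control mean was −0.38 on slide 1 and 0.79 for the slide 2 arrays. Without isoproterenol replicate 1, when the groups lie on different slides, Chga stood at 0.79 and past the threshold, and whether slide or treatment sets that value cannot be told apart.

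Scg5, the chaperone that keeps Pcsk2 from acting early, had −2.38, −1.79 and −1.82 with isoproterenol, against −1.74, −1.30 and −1.86 in controls. Again the groups overlapped, with a log2 change of −0.37 ± 0.25. It was −0.75 on slide 1 and 0.02 with normexp background correction.

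**Figure D2:**
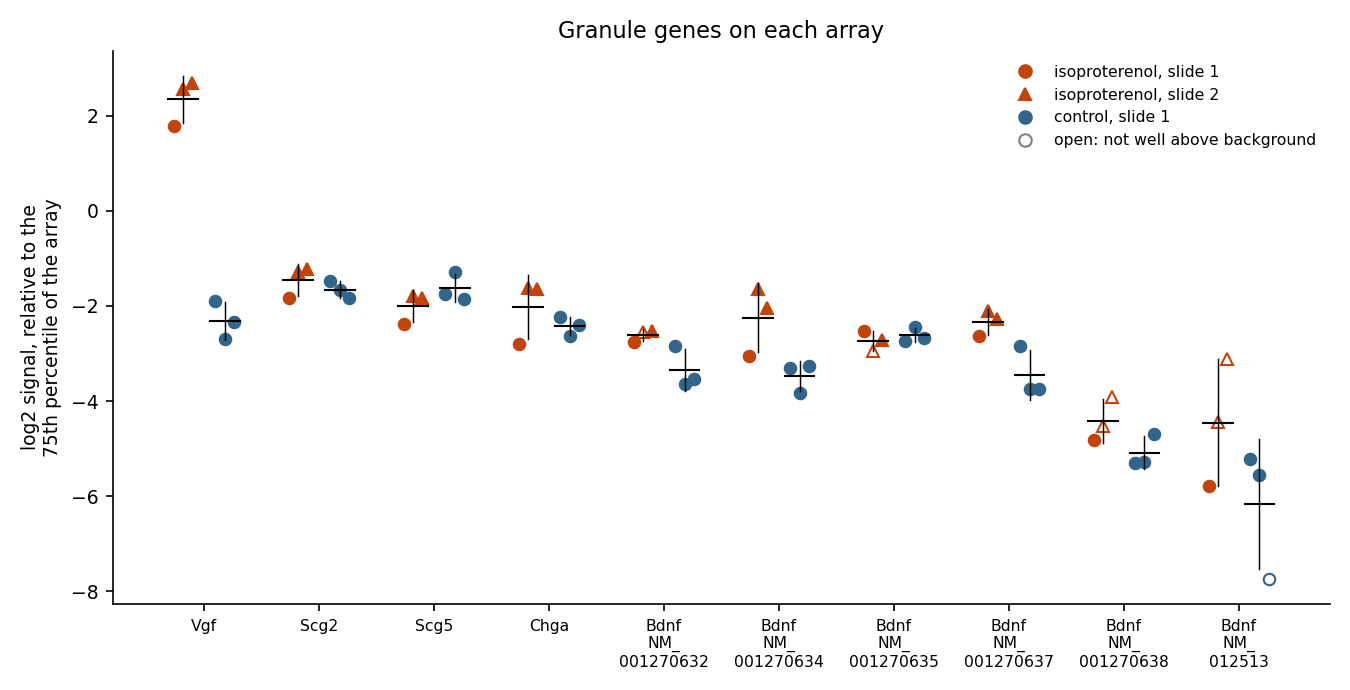
Relative log2 signal (vertical axis, each array's 75th percentile set to 0) of the 10 rows on each array, isoproterenol (orange; circle slide 1, triangles slide 2) left of control (blue); open symbols were not well above background, bars give the mean and SD of 3 arrays. The isoproterenol arrays of Vgf lie between 1.78 and 2.69, all above the control arrays at −2.70 to −1.90, while those of Scg2, Scg5 and Chga overlap the controls.

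Bdnf, a neurotrophin that enters the same granules and signals through the receptor Ntrk2, was read by 6 rows, which did not all give the same difference. In the 4 brighter rows the log2 change ran from −0.12 to 1.22. These RefSeq transcripts differ in their first exons and share a coding exon. Which stretch of the transcript each probe reads is not recorded in the files. Row NM_001270634 had −3.06, −1.63 and −2.05 with isoproterenol, against −3.31, −3.84 and −3.26 in controls, and a log2 change of 1.22 ± 0.38. Row NM_001270637 had −2.64, −2.11 and −2.28 with isoproterenol, against −2.84, −3.74 and −3.75 in controls, a change of 1.10 ± 0.30. Both were well above background on all 6 arrays, and in both every isoproterenol array lay above every control array.

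Row NM_001270632 also separated the groups, with −2.75, −2.55 and −2.53 on the isoproterenol arrays, against −2.83, −3.65 and −3.54 on the control arrays, a log2 change of 0.73 ± 0.25, but it was not well above background on isoproterenol replicate 2. Row NM_001270635, the brightest and so the one that stood for the gene in the fit, did not separate them. Its values were −2.53, −2.95 and −2.71 with isoproterenol, against −2.73, −2.44 and −2.67 in controls, a change of −0.12 ± 0.19, and it too was not well above background on isoproterenol replicate 2. The remaining rows, NM_001270638 and NM_012513, were well above background on 1 of 3 isoproterenol arrays, and NM_012513 also on only 2 of 3 control arrays. In both the groups overlapped, and the fitted log2 changes of 0.66 ± 0.30 and 1.71 ± 0.86 rest on signals near background. The highest difference on slide 1 was 0.81, in NM_001270637, and the lowest was 0.09, in NM_001270635.

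In a fit over all matched rows no Bdnf row passed the threshold, NM_001270634 included. With only probes well above background on all 6 arrays, which changed both the probe that stood for Bdnf and the genes tested (12316), NM_001270634 stood for the gene and passed at 1.22. With the mean over its probes the change was 0.88 and did not pass.

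Over all members, 1 gene, Vgf, was past the threshold (limma, Benjamini-Hochberg adjusted p under 0.05 over all genes) and higher, against 10.1% of all genes that were higher, 5.86% lower and 15.9% either way. With slide as a block the count was again 1, Vgf, against 7.27% of all genes either way. Isoproterenol arrays all lay above control arrays in 4 of the 10 rows, those of Vgf and 3 of Bdnf, and all below in 0 rows. Among all genes, each read by its brightest probe, the shares were 25.6% above and 15.8% below. Counted by gene in that way, only Vgf of the members present separated, since the brightest Bdnf row overlapped. Since the members were chosen on this comparison, nothing is read from these counts. In 9 of the 10 rows the slide 2 isoproterenol arrays lay above the one of slide 1. Of the 10 rows 6 were of Bdnf, so they are not separate genes. The difference was 0.85 for Vgf, 0.58 for Scg2, 0.58 for Scg5 and 1.18 for Chga. Over all genes that difference had a median of 0.10 and 5th and 95th percentiles of −1.53 and 1.07. The share of all genes with slide 2 above is not given.

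**Figure D3:**
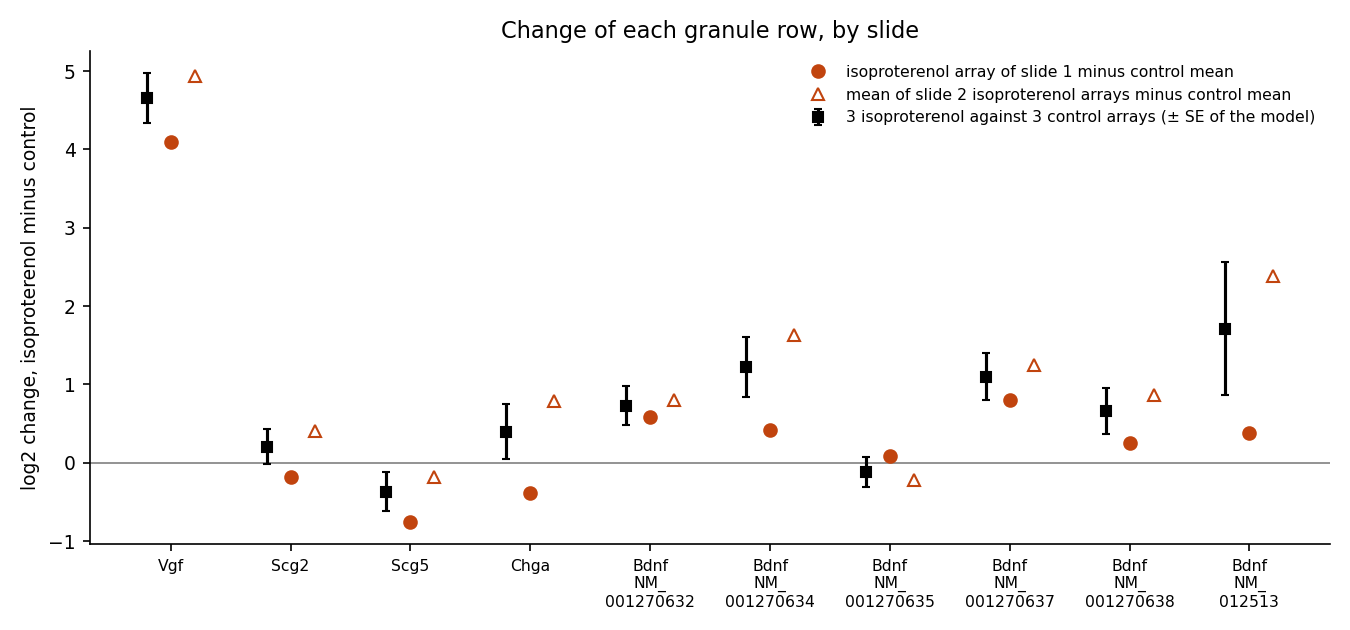
Log2 change of each row, isoproterenol minus control: squares give the fit over all 6 arrays with the SE of the model, filled circles the isoproterenol array of slide 1 minus the control mean, and open triangles the slide 2 arrays minus the control mean. Vgf stands at 4.09 to 4.94 in each, while Scg2, Chga and the Bdnf row NM_001270635 change sign between slides.

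**Figure D4:**
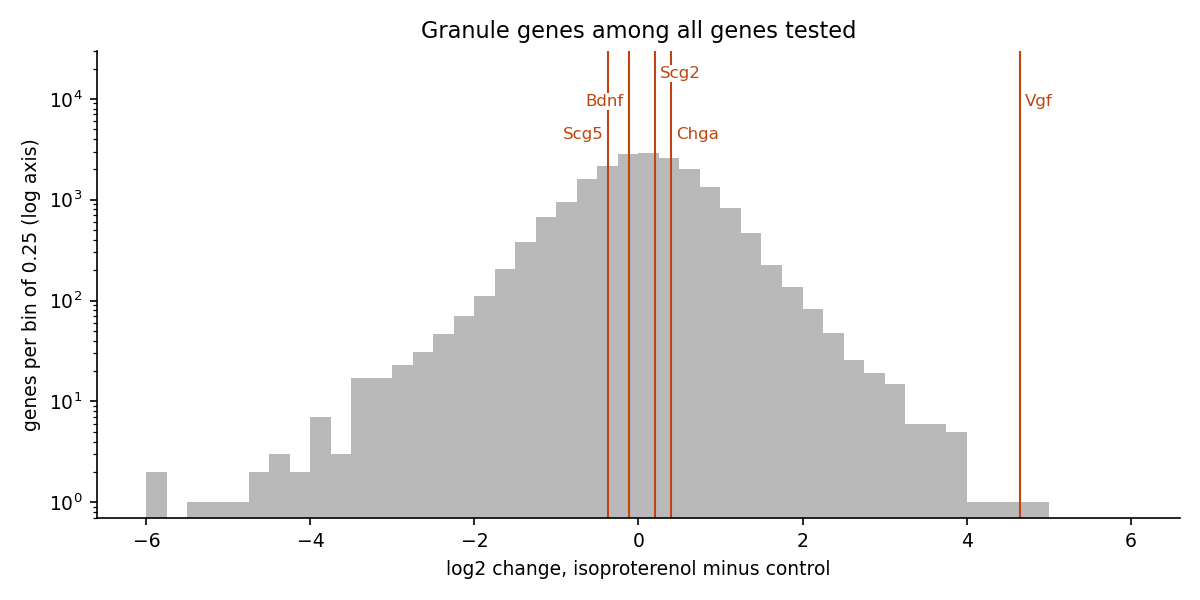
Number of genes (log axis) by log2 change, isoproterenol minus control, in bins of 0.25 over the 19975 genes tested; vertical lines mark the 5 members present. Vgf at 4.66 lies at the right end, and Scg5, Bdnf, Scg2 and Chga lie between −0.37 and 0.40, in the bulk of the genes.

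Granins are markers of neuroendocrine cells, so the marker lists of the cells such a culture could hold were read beside Vgf. Of 11 cardiomyocyte markers 10 were on the array, all well above background on all 6, and their summed signal relative to the 75th percentile was 1764 to 2833 with isoproterenol and 1517 to 1801 in controls. For 10 of 13 neuronal markers the sums were 15.6 to 24.3 with isoproterenol and 12.9 to 14.4 in controls, with 2 higher, 1 lower, and Tubb3, Phox2a and Gap43 not well above background on at least 1 array of slide 2. For 5 of 7 chromaffin markers, Chga among them, the sums were 5.01 to 7.33 with isoproterenol and 4.90 to 4.98 in controls, and 0 passed the threshold.

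The isoproterenol array of slide 1, where Vgf was already 4.09 above the control mean, had sums of 15.6 for the neuronal and 5.01 for the chromaffin list. Schwann cell and glial markers summed to 2.11 to 2.65 with isoproterenol and 2.67 to 2.93 in controls, and fibroblast markers to 127 to 169 with isoproterenol and 152 to 161 in controls, with 1 of 9 higher and 4 lower. Smooth muscle markers, 4 of 5 on the array, summed to 215 to 496 with isoproterenol and 82.8 to 148 in controls, with 2 higher and 1 lower. Endothelial markers, 6 of 7 on the array, summed to 14.0 to 15.5 with isoproterenol and 14.9 to 16.7 in controls, with 1 lower. Macrophage and leukocyte markers, 5 of 7, summed to 13.2 to 17.1 with isoproterenol and 9.75 to 16.9 in controls, with 1 higher. None of the listed markers was below background on every array. The part of these shifts in the Vgf value was not tested, and in RNA from whole cultures more cells of a type and more RNA per cell cannot be told apart.

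The genes whose pattern was most like that of Vgf were found among 8702 named genes well above background on all 6 arrays, by the root mean square difference of log2 signals centred on each gene's mean. The closest was F2rl1, a protease-activated receptor, with a difference of 0.26. It stood at 0.78, 2.35 and 1.83 on the isoproterenol arrays, against −2.50, −3.14 and −2.83 on the control arrays. Next came the neutrophil chemokine Cxcl2 at 0.45, Clca4l at 0.47 and C9h6orf141 at 0.47. Their log2 changes were 4.48 for F2rl1, 4.19 for Cxcl2, 3.95 for Clca4l and 3.75 for C9h6orf141. The measure covers 6 arrays and includes the size of the difference between groups.

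Beyond the members, 155 genes of the pathway in 7 lists were followed, of which 126 were tested, and 25 passed the threshold, 14 higher and 11 lower with isoproterenol. The median log2 change of the 126 was −0.14, beside 0.07 over all genes, and on slide 1 alone it was 0.08. Their shares of higher and lower genes stand beside the 10.1% and 5.86% given above for all genes. The lists were drawn up with results of these data known and are no independent support. As said above, log2 changes fitted with slide as a block rest on isoproterenol replicate 1 against the controls. Fitted with slide as a block, 15 of the 25 calls were kept, 7 higher and 8 lower, and all 25 kept their direction. When each array was left out in turn, 7 of the 20 called genes named below (Nmu, Stc2, Stc1, Ntrk2, Ntf3, Rab3a and Cadps) kept their call throughout, and the other 13 lost it in 1 or more of the 6 fits.

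Peptide precursors, 37 of the 126 tested genes, gave 7 of the 14 higher calls. Of the 37, 7 were higher and 2 lower, beside 10.1% and 5.86% of all genes. The list median was −0.00, and 0.28 on slide 1. With slide as a block 4 were higher and 1 lower. Galanin (Gal), a neuropeptide of sensory and sympathetic neurons, had −1.19, 0.83 and −0.41 on the isoproterenol arrays, against −3.97, −3.49 and −4.33 on the control arrays. All isoproterenol arrays were above all controls, and Gal rose by 3.67 ± 0.51 (limma, adjusted p = 0.00839), with 2.74 on slide 1 and 2.41 with normexp. Neuromedin U (Nmu), a peptide that contracts smooth muscle, had −1.61, −1.26 and −1.22 with isoproterenol, against −3.85, −3.49 and −3.47 in controls. It rose by 2.24 ± 0.20 (limma, adjusted p = 0.00288), 1.99 on slide 1 and 1.52 with normexp.

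The stanniocalcins, glycoprotein hormones that act on calcium and phosphate handling, moved in opposite directions. Stc2 stood at 1.24, 1.79 and 1.57 with isoproterenol, against −0.18, −0.06 and −0.47 in controls, and rose by 1.77 ± 0.21 (limma, adjusted p = 0.00610). Stc1 stood at −1.86, −1.96 and −1.62 with isoproterenol, against −0.12, −0.27 and −0.48 in controls, and fell by 1.53 ± 0.18 on the log2 scale (limma, adjusted p = 0.00610). Neither pair of groups overlapped, and both kept their call with slide as a block. Tac3, the precursor of neurokinin B, fell by 0.72 ± 0.18, a call lost with slide as a block and with normexp.

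Of 16 neurotrophins and related ligands and receptors, 1 was higher and 2 lower, beside 10.1% and 5.86% of all genes. The list median was −0.20. Ntrk2, the receptor of Bdnf, stood at 2.83, 4.21 and 3.85 on the isoproterenol arrays, against 0.67, 0.56 and 0.66 on the control arrays. It was separated on every array and rose by 3.00 ± 0.35 (limma, adjusted p = 0.00561), with 2.21 on slide 1 and 2.74 with normexp. Ntf3, neurotrophin-3, the ligand of the related receptor Ntrk3, stood at −4.64, −4.77 and −5.48 with isoproterenol, against −2.55, −1.66 and −1.84 in controls. It fell by 2.95 ± 0.32 (limma, adjusted p = 0.00489), with −2.62 on slide 1. It was well above background on 1 of 3 isoproterenol arrays, and normexp gave −0.74 and no call.

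Cdnf, a survival factor for dopamine neurons, fell by 0.98 ± 0.17.

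Among 13 processing enzymes, with a median of −0.01, 1 was higher and 1 lower, near the shares of all genes. Furin, the convertase of the constitutive pathway, rose by 0.78 ± 0.16, and Cpz, a carboxypeptidase of the extracellular matrix, fell by 1.34 ± 0.22. With slide as a block Furin stood at 0.68 and Cpz at −1.23, values close to these, but neither passed, and with normexp Cpz stood at −0.68 and did not pass. Cpe, which trims the basic residues that convertases leave, and Pam, which amidates peptides and is abundant in the granules of the atria, did not pass, with log2 changes of −0.23 ± 0.18 and −0.30 ± 0.20. Of 8 other granins and cargo proteins, with a median of −0.30, 2 were higher and 2 lower, beside 10.1% and 5.86% of all genes. Nucb2, the precursor of nesfatin, stood at 5.60, 6.76 and 6.64 with isoproterenol, against 4.48, 4.93 and 4.72 in controls. It rose by 1.62 ± 0.33, and by 0.89 on slide 1, where it did not pass.

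Pcsk1n, a granin-like inhibitor of Pcsk1, rose by 1.03 ± 0.26, 0.75 on slide 1, without passing with slide as a block. Clu and Sparcl1, secreted glycoproteins, fell by 0.96 ± 0.20 and 1.34 ± 0.20, and the call of Sparcl1 was kept with slide as a block. Scg3, which anchors granins to the granule membrane, had a log2 change of −0.12 ± 0.50 with no call, was well above background on 1 of 3 isoproterenol arrays, and stood at 0.92 on slide 1 and 0.65 with normexp.

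In the list for the granule membrane and exocytosis 2 of 28 genes were higher and 2 lower, beside 10.1% and 5.86% of all genes, at a median of −0.09 and 0.21 on slide 1. Rab3a, a small GTPase on the granule surface, stood at 2.48, 2.40 and 2.19 with isoproterenol, against 3.80, 4.35 and 4.12 in controls. It fell by 1.73 ± 0.20 (limma, adjusted p = 0.00578), with −1.60 on slide 1 and −1.80 with normexp. Cadps, which primes granules for release, stood at −5.36, −4.80 and −5.25 with isoproterenol, against −2.77, −2.16 and −2.23 in controls.

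Cadps fell by 2.75 ± 0.25 (limma, adjusted p = 0.00288), was well above background on 1 of 3 isoproterenol arrays, and with normexp gave −0.55 and no call. Syt11, a synaptotagmin that does not bind calcium, rose by 1.20 ± 0.17, also with slide as a block. Hid1, needed for granule maturation, rose by 0.73 ± 0.16 and passed with slide as a block, but not within slide 1 (0.76), with the replicate block (0.73) or with the 75th percentile over probes detected on all arrays (0.49). It passed in 1 of the 6 fits that left out an array.

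The receptors and regulators follow. Over 16 receptors of granule peptides the median was −0.38 (0.08 on slide 1). Beside 10.1% and 5.86% of all genes, 0 were higher and 1 lower. This was Ramp1, the partner protein of the calcitonin gene-related peptide receptor, which fell by 0.80 ± 0.15, without a call under normexp. C3ar1, a receptor for a Vgf-derived peptide in rodents, had a log2 change of −0.48 ± 0.30 and no call, with 0.18 on slide 1 and 0.53 with normexp. C3ar1 was well above background on 1 of 3 isoproterenol arrays, replicate 1. Without isoproterenol replicate 1 it passed at −0.81, a value from isoproterenol signals that were not well above background.

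Among 8 regulators, 1 was higher and 1 lower, beside 10.1% and 5.86% of all genes. The list median was −0.37 (0.11 on slide 1). Rcor2, a corepressor that works with Rest, was the lower one and fell by 1.59 ± 0.28. It was well above background on 1 of 3 isoproterenol arrays and had no call under normexp. Rest, the repressor that keeps neuronal genes such as granins silent elsewhere, did not pass. Its change was −0.60 ± 0.37, with 0.082 on slide 1. It was well above background on 1 of 3 isoproterenol arrays, replicate 1. Without that array Rest passed at −0.95, a value from isoproterenol signals that were not well above background. Creb1, the cAMP response element binding protein, was well above background on 2 of 3 isoproterenol arrays. It did not pass either, with 0.33 ± 0.18, but passed at 0.42 without isoproterenol replicate 1. In that fit 10391 of all 19975 genes passed, and slide and treatment cannot be told apart.

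**Figure D5:**
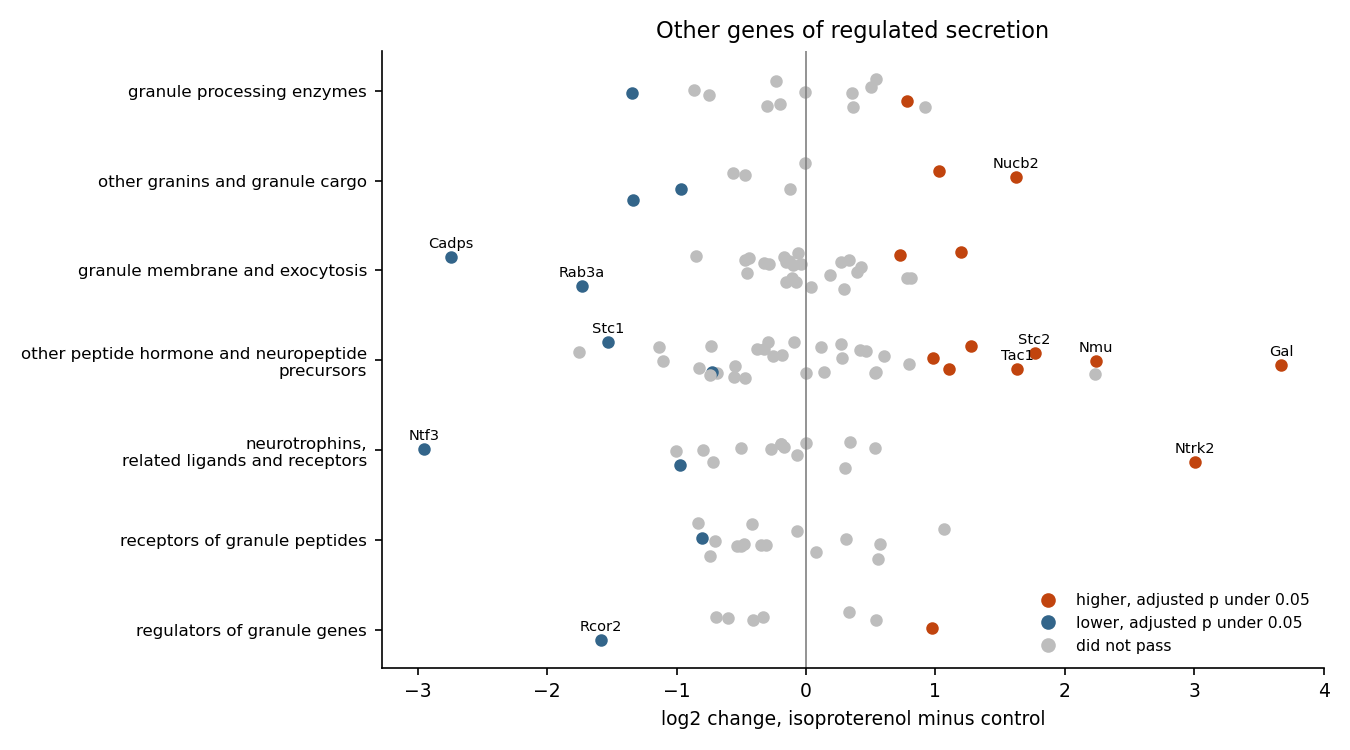
Log2 change, isoproterenol minus control, of the 126 tested genes of the 7 pathway lists; orange points were higher and blue points lower at an adjusted p under 0.05, grey points did not pass. Gal at 3.67 and Ntrk2 at 3.00 stand at the right and Ntf3 at −2.95 and Cadps at −2.75 at the left.

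The promoters of the pathway genes were searched for the same element. Of those with a RefSeq window, the full element was found in 0 of 7 genes that were higher, 0 of 6 that were lower and 4 of 79 that did not pass, the vesicular transporter Slc18a2, somatostatin (Sst), its receptor Sstr2 and urocortin (Ucn). The short form was found in 3 of 7, 2 of 6 and 24 of 79. Among all genes with a window, 23.0% held the short form and 2.00% the full element. The rest of the 14 higher and 11 lower genes had no window. The list counts are too small for a comparison.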

How the data were processed

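RNA of 6 cultures, 3 given isoproterenol and 3 controls, was measured on one-colour Agilent arrays for lncRNA and mRNA. Per the file headers, the software was Agilent Feature Extraction, version 11.0.1.1. The deposited scanner files hold background-subtracted linear intensity values of 43040 spots per array. The authors also deposited an mRNA table of normalized log2 values with transcript identifiers; the sources do not say how it was made. Its values lay close to quantile-normalized log2 intensity (95th percentile of the absolute difference 0.00245 or less on slide 1, and 0.631 and 0.629 on slide 2). Rows were matched by closeness to these values on slide 1, so the slide 1 differences were kept small by the matching.

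Since the scanner files name probes by number, table rows were matched to probes by value. Only the arrays of the slide that held the controls were used for this. The distance had to be under 0.05 and under 0.25 of the next best. Of 20734 rows 20676 were matched, 37 of them with the help of probe order, and 154 of 154 rows named in both sources met their own name. RefSeq accessions were named through a GRCr8 table (13938 of 14737), and 5939 Ensembl rows stayed unnamed.

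The log2 of the processed signal minus each array's 75th percentile was tested with limma 3.58.1 in R 4.3.3 (lmFit, eBayes, two-sided, Benjamini-Hochberg adjustment, threshold 0.05), on probes well above background on at least 3 arrays, with the brightest probe per gene, and the code was tested on simulated data. Levels were set against each other between probes only to pick the brightest probe, and signals of different probes were added only in the marker sums. No spot was saturated, and the number of arrays limits the precision. Alternatives were normexp (offset 50), quantile, median and other percentile scaling, the deposited table, other filters and probe rules, slide or replicate as a block, slide 1 alone, and leaving out each array. Normexp used median signals because the files hold no mean signal column.

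The members and the gene lists were chosen with earlier results of these data known. Genes named are all members, the 3 highest and 3 lowest calls of each list, 10 preset genes, and the 5 genes most like Vgf, except 3 genes that are not reported here. No protein sequences were used here.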

Additional observations from a re-analysis of the deposited data

How the results depend on the processing

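The number of genes changed was 3182, and it fell to 1452 with slide as a block and 1047 within slide 1, and ran from 363 (without control replicate 3) to 10391 (without isoproterenol replicate 1, when all isoproterenol arrays lie on slide 2) when 1 array was left out. Of the members, 1 passed the threshold, Vgf, but 2 did with only probes detected on all 6 arrays (Vgf and Bdnf), and leaving out 1 array gave 1 to 2, the 2 being Vgf and Chga without isoproterenol replicate 1. Of the pathway genes 25 passed, but 16 with slide as a block and 13 within slide 1, and 7 to 65 when 1 array was left out, lowest without control replicate 3 and highest without isoproterenol replicate 1. For the other settings, apart from the replicate block, the counts stayed within 1.5 times. The split of higher against lower genes was 2011 to 1171, but 2096 to 748 with normexp, 1370 to 1961 with the 75th percentile over probes detected on all arrays, 1612 to 1304 in the deposited table, 3082 to 1170 with probes detected on all 6 arrays, 726 to 726 with slide as a block and 497 to 550 within slide 1. The median change over all genes was 0.07, and moved to 0.37 with normexp, −0.17 with the detected percentile and 0.20 with probes detected on all 6 arrays.

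No pairing by replicate number was seen, with deviations of same-numbered arrays correlated at 0.01, 0.05 and −0.02. Since the isoproterenol replicates lie on different slides, these values cannot show whether the samples were paired. With the replicate block 1450 genes, 1 member and 17 pathway genes passed. Directions reversed only for genes with no call in the pooled fit. Among members this held for Scg2 (−0.18) and Chga (−0.38) with slide as a block, Scg2 with the detected percentile (−0.033), Scg5 with normexp (0.025) and Bdnf with normexp (0.37), quantile normalization (0.0092), slide as a block (0.086) and other probe rules (0.88 and 1.22). The Bdnf value of 1.22 came from another probe than the one of the pooled fit, and it passed the threshold. Scg3 was 0.65 with normexp, 0.92 with slide as a block and within slide 1, and −0.64 to 0.25 when 1 array was left out. C3ar1 was 0.53 with normexp and 0.18 with slide as a block and within slide 1, and Rest was 0.42 with normexp and 0.082 with slide as a block and within slide 1. The cause of these shifts was not tested. Dim probes on slide 2 limit what can be said of genes near background, and slide and treatment cannot be fully told apart.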
